A study of Trametes sanguinea with 15 samples.

Results

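Growth of the white-rot fungus *Pycnoporus sanguineus* CIRM-BRFM 1264 (named *Trametes sanguinea* in the sample labels) on ground plant biomass was compared with growth on purified wall polysaccharides, through the transcripts counted in 12 of the 15 libraries of the series. The biomass side held 3 libraries on aspen, a hardwood, and 3 on wheat straw, a grass. The polysaccharide side held 3 libraries on Avicel, a microcrystalline cellulose, and 3 on a mixture of xylan and galactomannan. All 12 libraries were of 1 strain, came from day 3 of liquid culture, and combined 15 g/l of substrate with a base of 2.5 g/l maltose, so that the contrast is between substrates added to the same small amount of sugar. The 3 remaining libraries, from cultures with 20 g/l of maltose and no other substrate, did not enter the comparison. The libraries were chosen by substrate alone, and no measured value was used to choose them.

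White-rot fungi break down all polymers of the plant cell wall. Cellulose is cut by cellobiohydrolases and by lytic polysaccharide monooxygenases, hemicelluloses and pectins by families of backbone and side-chain hydrolases and by esterases, and lignin is attacked by oxidative enzymes. Aspen and wheat straw present these polymers together, with lignin, extractives, pectin and protein, whereas Avicel offers cellulose and the xylan and galactomannan mixture offers hemicellulose only. Products of lignin and extractives are converted or detoxified by monooxygenases, cytochromes P450, esterases and ring-cleaving dioxygenases.

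Levels are given as CPM, a gene's reads scaled to the TMM-adjusted total of its library, and a library is named by its substrate and replicate number. The average of aspen and wheat straw was set against the average of Avicel and xylan-galactomannan, and a positive log2 fold change means higher on biomass. A gene was called at a Benjamini-Hochberg adjusted p under 0.05 (edgeR quasi-likelihood test over all 11704 genes tested) with an absolute log2 fold change above 1. Library totals ranged from 24209984 (xylan-galactomannan 1) to 50428442 counts (Avicel 1). Along the first principal component (38.9% of the variance), all 6 biomass libraries lay on one side (scores -60.73 to -27.46) and all 6 polysaccharide libraries on the other (20.01 to 78.4). The second component, with 29.2%, parted Avicel (-61.62 to -53.94) from xylan-galactomannan (48.24 to 56.43). Mean distances between libraries (root mean square over genes, log2 CPM) were 1.246 from aspen to Avicel, 1.253 from aspen to xylan-galactomannan, 0.989 from wheat straw to Avicel and 1.2 from wheat straw to xylan-galactomannan. Within the sides they were 0.827 from aspen to wheat straw and 1.24 from Avicel to xylan-galactomannan, with 0.431, 0.405, 0.656 and 0.829 within aspen, wheat straw, Avicel and xylan-galactomannan. The libraries Avicel 1 and xylan-galactomannan 2 stood apart from their own groups, and results that rest on them are given with and without them. Of the 74 genes given values below or in the plots, 8 gained the call on average and 1 lost it without both. For xylan-galactomannan no source used here says that the 3 libraries came from separate cultures, so p-values against it measure the spread between these libraries, which may be technical.

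On biomass 1012 genes were higher and 1046 genes lower than on the polysaccharides, which is 8.65% and 8.94% of the genes tested. An average over both sides can pass through a single substrate, and the same rule was therefore applied to each of the 4 substrate pairs. Of the 1012 genes higher on average, 221 were called in all 4 pairs, 251 in 3, 475 in 2, 59 in 1 and 6 in none. Of the 1046 lower genes, 174 were called in all 4 pairs, 273 in 3, 550 in 2, 44 in 1 and 5 in none. The genes that passed all 4 pairs made up 1.89% (higher) and 1.49% (lower) of the genes tested. Against Avicel alone, 5.87% of the genes were higher on both biomasses and 3.52% lower, and against xylan-galactomannan alone 5.37% were higher and 7.38% lower. Of the 1012 higher genes 27.0% also differed between Avicel and xylan-galactomannan (14.0% of all genes tested), and 16.5% between aspen and wheat straw (13.2% of all genes tested). Scaling factors differed by side (1.054 to 1.282 on biomass, 0.7258 to 0.9523 on polysaccharides). With library size alone the median gene had a log2 fold change of 0.41 in place of -0.005, and 2195 genes were higher and 448 lower, so the balance of directions is relative to the TMM scaling.

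**Figure D1:**
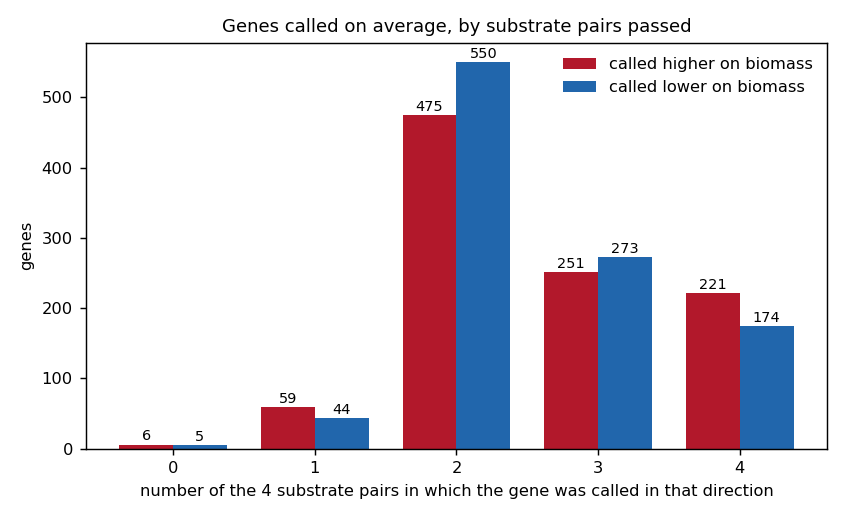
Number of genes (vertical axis) called on average over biomass and polysaccharides, by the number of the 4 substrate pairs in which each was also called in that direction (horizontal axis), with red bars for genes higher and blue bars for genes lower on biomass. The tallest bars, 475 and 550 genes, stand at 2 pairs, and 221 and 174 genes passed all 4.

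Gene functions come from the study's tables for this strain, which name 166 genes and annotate 98 of them. Grouped by annotation, 67 genes fell into 12 lists. All of them were in those tables because the study had picked them on libraries used here. It had picked them for high transcription on aspen or on wheat straw or for membership of transcript clusters rich in secreted proteins. Their direction against Avicel is therefore not independent evidence. For genes picked for high levels on biomass, neither is their direction against xylan-galactomannan, on average or in all 4 pairs. The biomass libraries are the same. Of the 67 genes, 36 were called higher and 4 lower (8.65% and 8.94% of all genes tested), 15 were higher in all 4 pairs and 0 lower in all 4 (1.89% and 1.49%). Counts given below for a family or list refer to these selected genes and not to whole families of the genome. Of the 395 genes called in all 4 pairs, 38 were in the study's tables and 21 carried an annotation.

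**Figure D2:**
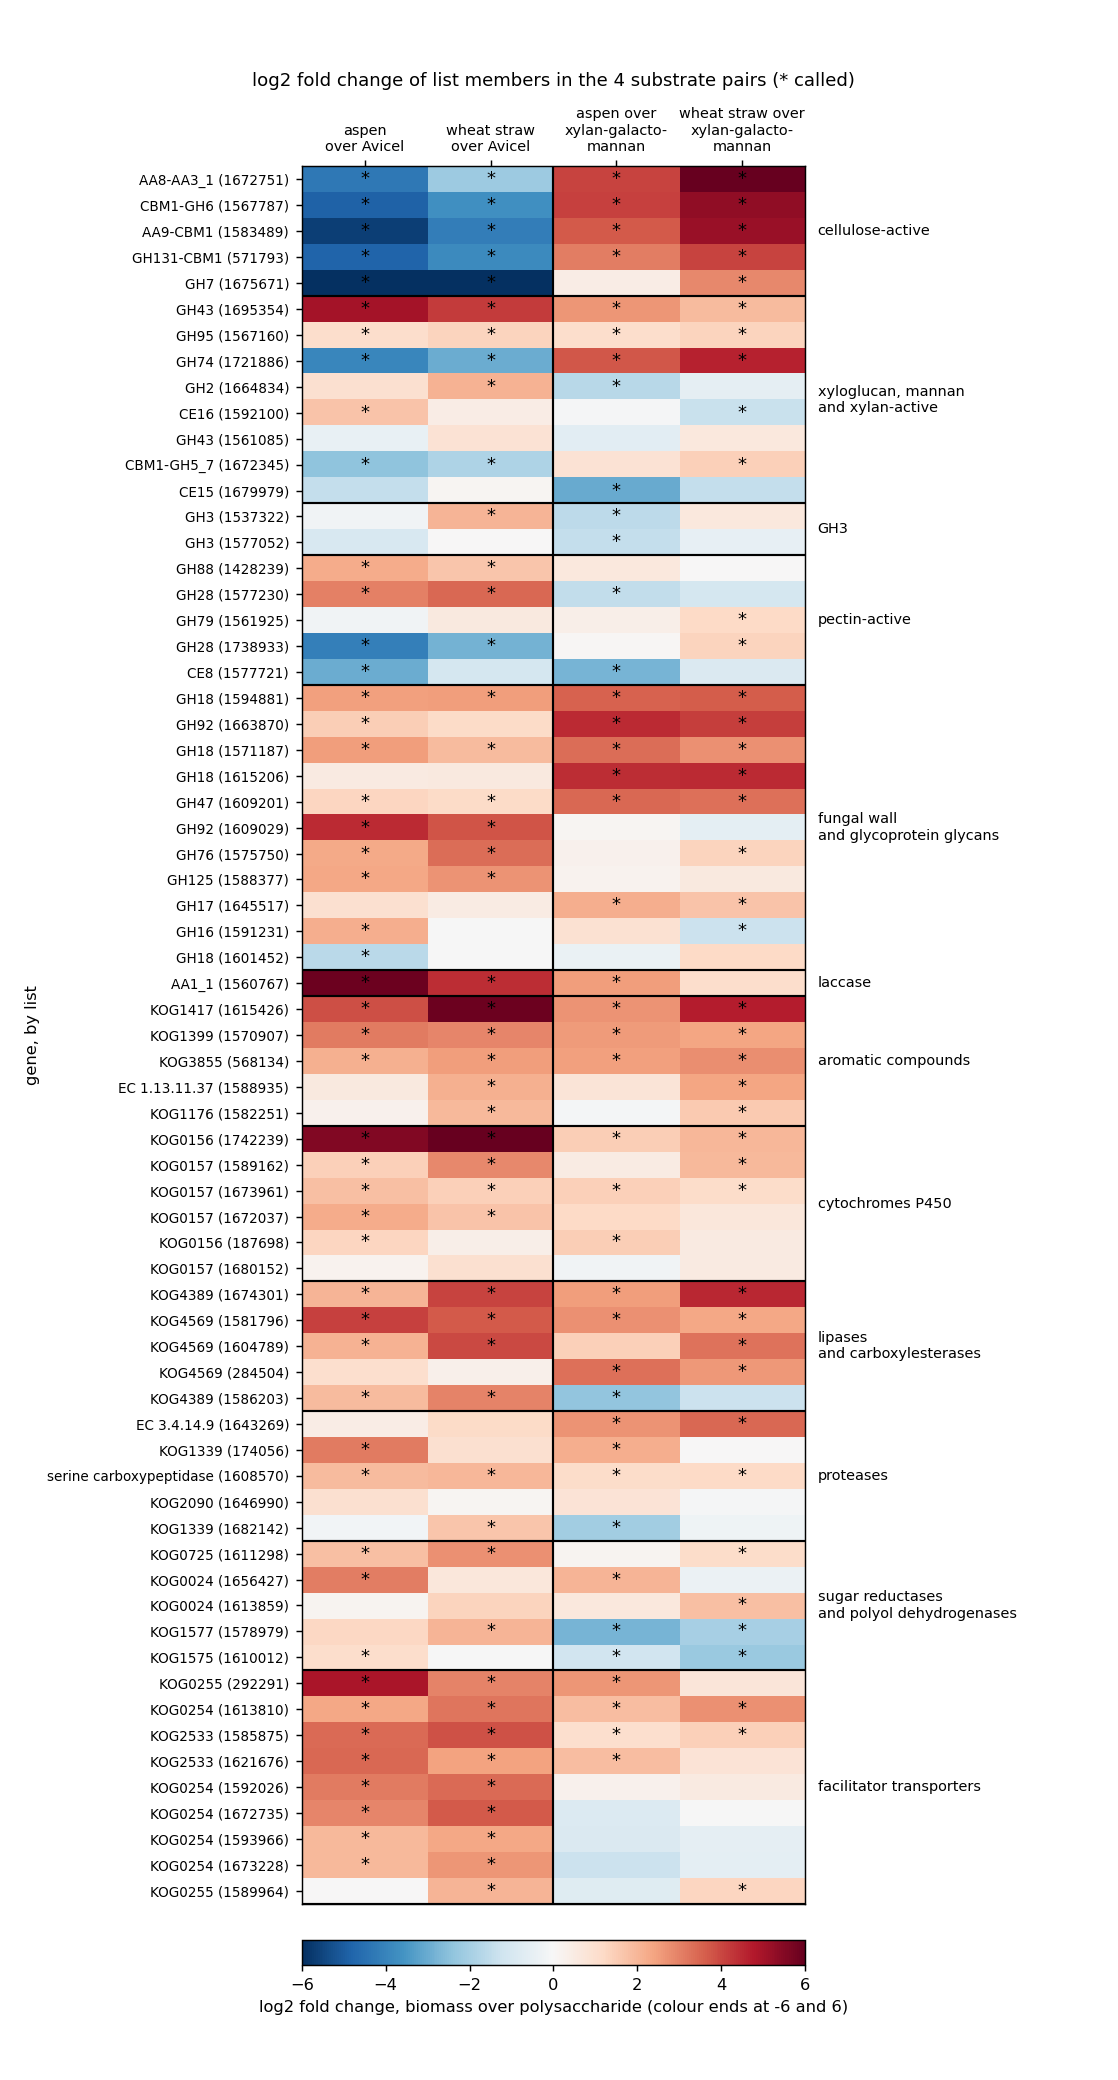
Log2 fold change (colour, red for higher and blue for lower on biomass, ends at -6 and 6) of the 67 annotated genes (rows, by list) in the 4 substrate pairs (columns), with an asterisk where the pair was called. Cellulose-active genes are blue against Avicel and mostly red against xylan-galactomannan, 3 of the 5 aromatic compound genes are called in all columns, and most transporters are red against Avicel and pale against xylan-galactomannan.

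The genes for enzymes of cellulose breakdown were not higher on biomass than on both polysaccharides. All stood below Avicel, and all but GH7 on aspen above xylan-galactomannan. Of the 5 cellulose-active genes, 5 were called lower than Avicel on both biomasses and 4 were called higher than xylan-galactomannan on both (3.52% and 5.37% of all genes tested). In the average contrast 0 were higher and 1 was lower (8.65% and 8.94% of all genes tested). Their median log2 fold change was -0.23, against -0.005 over all genes tested. All 5 came from the same transcript cluster of the study, formed on levels that included Avicel, aspen and wheat straw. Their likeness on these substrates is therefore not independent evidence. Over all genes, 0.402% showed this pattern of lower than Avicel and higher than xylan-galactomannan on both biomasses, a class that was defined after the values were seen. The reverse pattern, higher than Avicel and lower than xylan-galactomannan, was found in 0.188% of genes and in 0 of the 67.

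CBM1-GH6 (1567787), a cellobiohydrolase family with a cellulose-binding module, had 472, 286 and 325 CPM on aspen and 762.1, 953 and 799 CPM on wheat straw, against 17787, 7359.6 and 6566 CPM on Avicel and 24.1, 21.1 and 18.6 CPM on xylan-galactomannan. The 4 groups did not overlap, in the order Avicel, wheat straw, aspen, xylan-galactomannan. The log2 fold change was -4.87 ± 0.43 for aspen over Avicel and -3.66 ± 0.41 for wheat straw over Avicel, but 4.09 ± 0.42 for aspen and 5.30 ± 0.44 for wheat straw over xylan-galactomannan (adjusted p = 1.18e-05, 0.0002, 3.92e-05 and 2.13e-05). On average these cancelled, to log2 fold change 0.21 ± 0.26, adjusted p = 0.515.

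AA9-CBM1 (1583489), a lytic polysaccharide monooxygenase that cuts cellulose by oxidation, had 261, 170.5 and 176 CPM on aspen and 540.2, 752 and 452 CPM on wheat straw, against 22621, 4018 and 3827 CPM on Avicel and 21.9, 11.6 and 14.1 CPM on xylan-galactomannan. AA8-AA3_1 (1672751), of the cellobiose dehydrogenase type that can pass electrons to such monooxygenases, had 317, 191 and 165 CPM on aspen and 736, 1184 and 951 CPM on wheat straw, against 8618, 2284 and 2138 CPM on Avicel and 10.5, 17.4 and 13 CPM on xylan-galactomannan. GH131-CBM1 (571793), a beta-glucanase family, had 152 ± 35.5 CPM on aspen and 309 ± 52.6 CPM on wheat straw, against 4312 ± 1608 CPM on Avicel and 18.4 ± 4.21 CPM on xylan-galactomannan (SD, n = 3 each). All 3 genes kept the order of CBM1-GH6, and Avicel 1 held the highest value of each. With Avicel 1 and xylan-galactomannan 2 left out, the average log2 fold change of AA8-AA3_1 was 1.52 and passed the test, against 0.93 (adjusted p = 0.0488, under the fold threshold) with all libraries. For AA9-CBM1 the sign turned, with 0.37 against -0.23, and neither value was called.

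GH7 (1675671), the other cellobiohydrolase family, was the only one of the 5 to be called in the average contrast. It had 36.9, 45 and 78.6 CPM on aspen and 339, 456 and 62.6 CPM on wheat straw, against 62248, 18226 and 16290.0 CPM on Avicel and 52.9, 30.3 and 34.6 CPM on xylan-galactomannan. The aspen libraries overlapped those on xylan-galactomannan, and wheat straw 3 lay far below the other wheat straw libraries. GH7 fell by 3.19 on the log2 scale on biomass (SE 0.53, adjusted p = 0.00059), with log2 fold changes of -9.24 ± 0.98 for aspen and -6.82 ± 0.88 for wheat straw over Avicel, 2.86 ± 0.74 for wheat straw over xylan-galactomannan (adjusted p = 0.00982) and 0.45 ± 0.69 for aspen over xylan-galactomannan (adjusted p = 0.615). Per kilobase of gene model, GH7 was the lowest of the 5 genes on biomass, with 33 CPM per kilobase on aspen and 176 on wheat straw (CBM1-GH6 had 266 and 618), but the highest on Avicel, with a mean of 19910.3 against 7796 for CBM1-GH6. Summed over the 5 genes, the share of all counts was 0.0934 to 0.164% on aspen and 0.278 to 0.434% on wheat straw, against 3.05 to 8.52% on Avicel, and on xylan-galactomannan it was 0.00854 to 0.0109%.

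**Figure D3:**
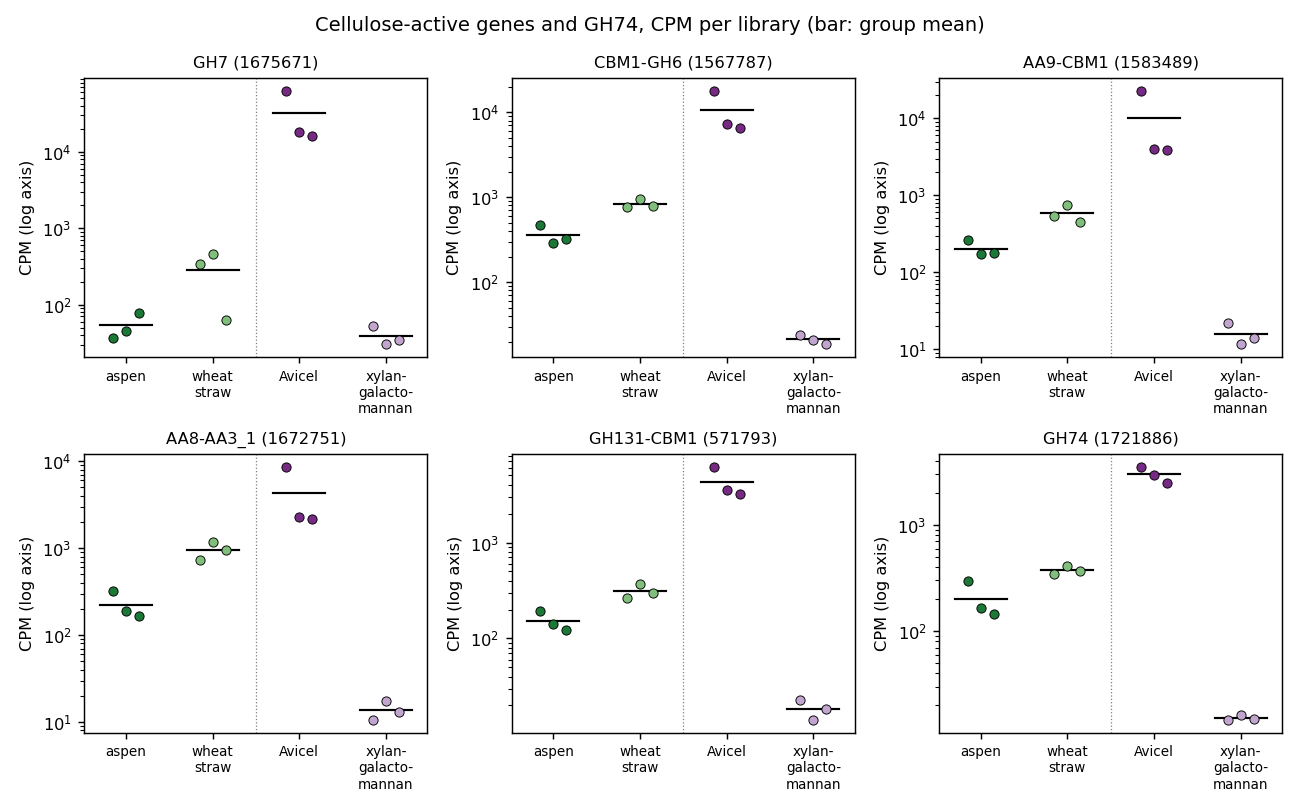
CPM (log axis) of the 5 cellulose-active genes and of GH74 in each library (points) on aspen, wheat straw, Avicel and xylan-galactomannan, with the group mean as a bar. In every panel Avicel is the highest group, and in all but GH7 both biomasses lie clear of both polysaccharides and between them.

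Genes of the hemicellulases fell into different patterns. Of the 8 listed genes active on xyloglucan, mannan and xylan, 2 were called higher (1 GH43 gene and GH95, each in all 4 pairs) and 1 lower (CE15). Their median log2 fold change was 0.20. Over all genes tested 8.65% were higher, 8.94% lower and 1.89% higher in all 4 pairs. The second GH43 gene, 1561085, was called neither on average (log2 fold change 0.11 ± 0.33, adjusted p = 0.809) nor in any of the 4 pairs. GH43 (1695354), of a family that removes arabinose and xylose from side chains and ends, had 147, 556 and 373 CPM on aspen and 164, 258 and 216 CPM on wheat straw, against 3.44, 15.3 and 15.5 CPM on Avicel and 31.2, 71.9 and 67.9 CPM on xylan-galactomannan. The lowest biomass library was above the highest polysaccharide library, and the rise was 10.8-fold (log2 fold change 3.44 ± 0.44, adjusted p = 0.000132). GH95 (1567160), an alpha-fucosidase family, had 80.8 ± 16.2 CPM on aspen and 95.9 ± 26.2 CPM on wheat straw, against 38.4 ± 6.62 CPM on Avicel and 38.5 ± 17.7 CPM on xylan-galactomannan (log2 fold change 1.19 ± 0.23, adjusted p = 0.00139).

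GH74 (1721886), known for cutting the xyloglucan backbone, had 295, 167 and 144 CPM on aspen and 349, 411 and 366 CPM on wheat straw, against 3525, 2982 and 2492 CPM on Avicel and 14.6, 16.4 and 15 CPM on xylan-galactomannan. This is the order of the cellulose-active genes. The study had placed GH74 and CBM1-GH5_7 in the same transcript cluster as those genes, formed on levels that included Avicel, aspen and wheat straw. Their likeness to the cellulose-active genes on these substrates is therefore not independent evidence. Its log2 fold change was -3.89 and -2.998 over Avicel on aspen and wheat straw, and 3.72 and 4.62 over xylan-galactomannan, all 4 called. CBM1-GH5_7 (1672345), an endo-mannanase family, was likewise lower than Avicel on both biomasses (log2 fold change -2.42 and -1.85). It had 320.3 ± 74.4 CPM on aspen and 475 ± 65.3 CPM on wheat straw, against 175 ± 85.7 CPM on xylan-galactomannan, a mixture that contains mannan, and only wheat straw was called above that mixture (adjusted p = 0.116 for aspen, 0.0204 for wheat straw).

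GH2 (1664834), annotated as a beta-mannosidase, which releases mannose from short mannan chains, had 107, 146 and 148 CPM on aspen and 322, 285 and 279 CPM on wheat straw, against 53.2, 78.5 and 75.4 CPM on Avicel and 179, 734 and 353 CPM on xylan-galactomannan. It was called higher than Avicel on wheat straw (log2 fold change 2.10 ± 0.41, adjusted p = 0.00422) and lower than xylan-galactomannan on aspen (log2 fold change -1.66 ± 0.40, adjusted p = 0.00647), and the average did not differ (log2 fold change 0.22 ± 0.28, adjusted p = 0.54). CE15 (1679979), of a family of glucuronoyl esterases that cut bonds between lignin and xylan, had 22, 25.6 and 30.5 CPM on aspen and 97.4, 95 and 42.2 CPM on wheat straw, against 149, 31 and 33.8 CPM on Avicel and 57.5, 398 and 175 CPM on xylan-galactomannan. Its fall of 1.44 on the log2 scale (adjusted p = 0.0343) rested on Avicel 1 and xylan-galactomannan 2, the highest library of each group. Without both, the log2 fold change was -0.45 (adjusted p = 0.287), and the call was also lost with any 1 of 8 of the 12 libraries left out. The GH3 genes 1537322 and 1577052, of a family with beta-glucosidases and beta-xylosidases, were not called (log2 fold change 0.22 ± 0.33 and -0.71 ± 0.37). Gene 1537322 had 37.3 ± 7.37 CPM on aspen and 176 ± 28.5 CPM on wheat straw, against 43.2 ± 15 CPM on Avicel and 112 ± 91.1 CPM on xylan-galactomannan.

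Among 5 listed pectin-active genes 1 was called higher and 2 lower (8.65% and 8.94% of all genes tested, median log2 fold change 0.47). GH88 (1428239), a family of unsaturated glucuronyl hydrolases, had 109.6, 191 and 152 CPM on aspen and 102, 102 and 99.5 CPM on wheat straw, against 19.7, 38.3 and 39 CPM on Avicel and 77.7, 143 and 74.8 CPM on xylan-galactomannan. It was higher than Avicel on both biomasses (2.22 on aspen and 1.64 on wheat straw) but overlapped xylan-galactomannan (0.61 and 0.04, not called). The average rise (log2 fold change 1.129 ± 0.22, adjusted p = 0.00174) was just above the fold threshold, and without Avicel 1 it was 0.99. CE8 (1577721), a pectin methylesterase family, had 22.3, 22.9 and 23.4 CPM on aspen and 93.3, 85.2 and 85.2 CPM on wheat straw, against 248, 149 and 146 CPM on Avicel and 47.8, 325 and 109 CPM on xylan-galactomannan. Aspen was the lowest group, below every other library, and the average fall was 1.93 on the log2 scale (SE 0.37, adjusted p = 0.00159, and -1.26 without Avicel 1 and xylan-galactomannan 2).

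Both genes of GH28, the polygalacturonase family, differed widely between the polysaccharides, in opposite directions. Gene 1738933 had 169 ± 8.41 CPM on aspen and 404 ± 130.4 CPM on wheat straw, against 2922 ± 1425 CPM on Avicel and 159 ± 71.6 CPM on xylan-galactomannan, and its average fall of 1.39 on the log2 scale (adjusted p = 0.00257) came from Avicel, with -4.12 on aspen and -2.86 on wheat straw. With library size alone it was -0.95 and no longer called. Gene 1577230 had 157 ± 18.1 CPM on aspen and 212 ± 20.8 CPM on wheat straw, against 19.3 ± 3.45 CPM on Avicel and 444 ± 290.1 CPM on xylan-galactomannan. Here Avicel was the lowest group, with log2 fold changes of 3.03 and 3.46 for aspen and wheat straw over Avicel. Over xylan-galactomannan they were -1.50 on aspen (adjusted p = 0.0118) and -1.07 on wheat straw (adjusted p = 0.052, not called). Its average of 0.98 ± 0.29 was not called, and without Avicel 1 and xylan-galactomannan 2 it was 1.34 and called.

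Most of the listed genes that act on fungal wall polymers and glycoprotein glycans were higher on biomass on average. Of the 11 genes, which the study had picked on libraries used here, 9 were called higher and 0 lower (8.65% and 8.94% of all genes tested). Their median log2 fold change was 1.93, and 3 were higher in all 4 pairs (1.89% of all genes tested). The GH18 chitinase family supplied 3 of the largest rises. GH18 (1594881) had 113, 279 and 195 CPM on aspen and 195, 259 and 170.5 CPM on wheat straw, against 24.1, 41.9 and 42 CPM on Avicel and 18.4, 18.1 and 13.5 CPM on xylan-galactomannan, with every biomass library above every polysaccharide library (log2 fold change 3.04 ± 0.24, adjusted p = 8.73e-06). GH18 (1571187) had 168 ± 47.9 CPM on aspen and 109.5 ± 28.1 CPM on wheat straw, against 29.8 ± 14.2 CPM on Avicel and 16.4 ± 4.11 CPM on xylan-galactomannan (log2 fold change 2.62 ± 0.25, adjusted p = 2.49e-05), and was also called in all 4 pairs. GH18 (1615206) rose against xylan-galactomannan only, with 255, 331 and 284 CPM on aspen and 334, 341 and 225 CPM on wheat straw, against 364, 104 and 123 CPM on Avicel and 17.3, 12.9 and 10.8 CPM on xylan-galactomannan. Its log2 fold change over Avicel was 0.56 ± 0.41 on aspen and 0.61 ± 0.41 on wheat straw, not called, and Avicel 1 lay above every biomass library. The fourth GH18 gene, 1601452, was not called (log2 fold change -0.22 ± 0.37).

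The alpha-mannosidase genes, which trim mannose from glycoproteins, fell into patterns of their own. GH47 (1609201) was higher in all 4 pairs, with 247, 612 and 444 CPM on aspen and 359, 457 and 378 CPM on wheat straw, against 122, 227 and 183 CPM on Avicel and 40.7, 41 and 37.2 CPM on xylan-galactomannan (log2 fold change 2.31 ± 0.22, adjusted p = 2.33e-05). GH92 (1663870) had 596 ± 83.2 CPM on aspen and 475 ± 142 CPM on wheat straw, against 212 ± 199 CPM on Avicel and 26.8 ± 6.19 CPM on xylan-galactomannan, a rise of 2.82 ± 0.39 on the log2 scale (adjusted p = 0.000202), and 3.49 without Avicel 1 and xylan-galactomannan 2, since Avicel 1 (442 CPM) lay far above Avicel 2 and 3 (95 and 98.2 CPM). The other GH92 gene (1609029) was higher than Avicel on both biomasses (4.46 on aspen and 3.77 on wheat straw) and did not differ by the test from xylan-galactomannan (0.09 and -0.60), where its libraries spread from 151 to 953 CPM. GH76 (1575750) and GH125 (1588377), of families that cut alpha-mannan, were called higher on average (log2 fold change 1.80 ± 0.26 and 1.45 ± 0.20), as was GH17 (1645517), of a family active on beta-glucan of the fungal wall (1.34 ± 0.15). Over xylan-galactomannan, GH125 was called on neither biomass (0.20 on aspen and 0.58 on wheat straw) and GH76 not on aspen (0.25). Over Avicel, GH17 was called on neither biomass (0.98 on aspen and 0.50 on wheat straw), and GH92 (1663870) was not called on wheat straw (1.17, adjusted p = 0.12).

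Next came genes of oxidation and of aromatic compounds. AA1_1 (1560767), a laccase, which oxidises phenols with oxygen, had 239, 412 and 328 CPM on aspen and 48.5, 98.3 and 207 CPM on wheat straw, against 1.91, 8.21 and 6.31 CPM on Avicel and 18.9, 115 and 38.7 CPM on xylan-galactomannan. It was 11.1-fold higher on biomass (log2 fold change 3.47 ± 0.54, adjusted p = 0.000421), with no biomass library below any Avicel library. Against xylan-galactomannan the rise passed the test on aspen (log2 fold change 2.51 ± 0.73, adjusted p = 0.0161) and not on wheat straw (log2 fold change 1.04 ± 0.70, adjusted p = 0.252), whose libraries overlapped xylan-galactomannan 2. Aspen exceeded wheat straw by 1.47 ± 0.70 on the log2 scale, without passing the test (adjusted p = 0.138).

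Of the 5 listed genes for aromatic compounds 4 were called higher (8.65% of all genes tested, median log2 fold change 2.47), and 3 in all 4 pairs (1.89% of all genes tested). KOG1417 (1615426), homogentisate dioxygenase, which opens the ring in the breakdown of phenylalanine and tyrosine, had 75, 114 and 65.3 CPM on aspen and 73.4, 79.7 and 878 CPM on wheat straw, against 7.32, 4.92 and 5.26 CPM on Avicel and 18.1, 5.14 and 16.3 CPM on xylan-galactomannan. All biomass libraries were above all polysaccharide libraries (log2 fold change 4.29 ± 0.66, adjusted p = 0.000408). Wheat straw 3 was far above the other biomass libraries, and without it the log2 fold change was 3.20. KOG1399 (1570907), a flavin-containing monooxygenase, had 125.2, 162 and 144 CPM on aspen and 84.9, 80.5 and 209 CPM on wheat straw, against 21.2, 14.5 and 13.6 CPM on Avicel and 20.9, 35.7 and 16 CPM on xylan-galactomannan (log2 fold change 2.75 ± 0.29, adjusted p = 4.08e-05). KOG3855 (568134), a monooxygenase family best known from ubiquinone synthesis, had 77.2, 128 and 87.7 CPM on aspen and 139, 114 and 118 CPM on wheat straw, against 27.7, 19.4 and 19.3 CPM on Avicel and 21.8, 13.7 and 18 CPM on xylan-galactomannan (log2 fold change 2.47 ± 0.17, adjusted p = 4.70e-06). For both genes the groups of a side differed little, with 0.20 ± 0.38 and -0.35 ± 0.23 on the log2 scale for aspen over wheat straw.

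The hydroxyquinol dioxygenase (1588935), an enzyme that opens the ring of a late product of aromatic breakdown, was highest on wheat straw. It had 60.9, 55.7 and 57.2 CPM on aspen and 77.6, 123 and 317 CPM on wheat straw, against 29.5, 43.1 and 43.7 CPM on Avicel and 38.1, 34.3 and 28.1 CPM on xylan-galactomannan (average log2 fold change 1.47 ± 0.29, adjusted p = 0.00176). Every aspen library was also above every polysaccharide library, without a call on aspen against either, and wheat straw 3 was again the highest library. The gene of the 4-coumarate-CoA ligase type (1582251, KOG1176), which activates hydroxycinnamic acids, was called on wheat straw against both polysaccharides (1.94 over Avicel and 1.57 over xylan-galactomannan) and on aspen against neither (0.25 and -0.12), and the average stayed under the fold threshold (log2 fold change 0.91 ± 0.15, adjusted p = 0.000576). Without Avicel 1 and xylan-galactomannan 2 the average was 1.09 and called.

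Of 6 listed genes for cytochromes P450, haem monooxygenases that fungi use on many foreign and aromatic compounds, 4 were called higher and 0 lower (8.65% and 8.94% of all genes tested). Their median log2 fold change was 1.45. KOG0156 (1742239) had 230.2, 508 and 376 CPM on aspen and 449, 396 and 741 CPM on wheat straw, against 12.2, 5.32 and 5.87 CPM on Avicel and 146, 163 and 90 CPM on xylan-galactomannan. It separated every biomass library from every polysaccharide library, although xylan-galactomannan was itself well above Avicel (log2 fold change 3.78 ± 0.31, adjusted p = 1.13e-05). KOG0157 (1673961) was the other P450 gene called in all 4 pairs, with 183 ± 21.6 CPM on aspen and 145 ± 18.9 CPM on wheat straw, against 52.9 ± 19.6 CPM on Avicel and 67 ± 25.5 CPM on xylan-galactomannan (log2 fold change 1.45 ± 0.21, adjusted p = 0.00022). The KOG0157 genes 1589162 and 1672037 rose on average (log2 fold change 1.69 ± 0.21 and 1.45 ± 0.32). Over xylan-galactomannan, 1672037 was called on neither biomass (1.19 on aspen and 0.69 on wheat straw), and 1589162 was not called on aspen (0.48). Gene 1589162 was lower on aspen, with 111 ± 13.3 CPM, than on wheat straw, with 309 ± 65.6 CPM (aspen over wheat straw log2 fold change -1.48 ± 0.30, adjusted p = 0.00421). The remaining P450 genes, 187698 and 1680152, had log2 fold changes of 0.91 and 0.36, under the fold threshold, and 187698 had 1.01 and was called without Avicel 1 and xylan-galactomannan 2.

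**Figure D4:**
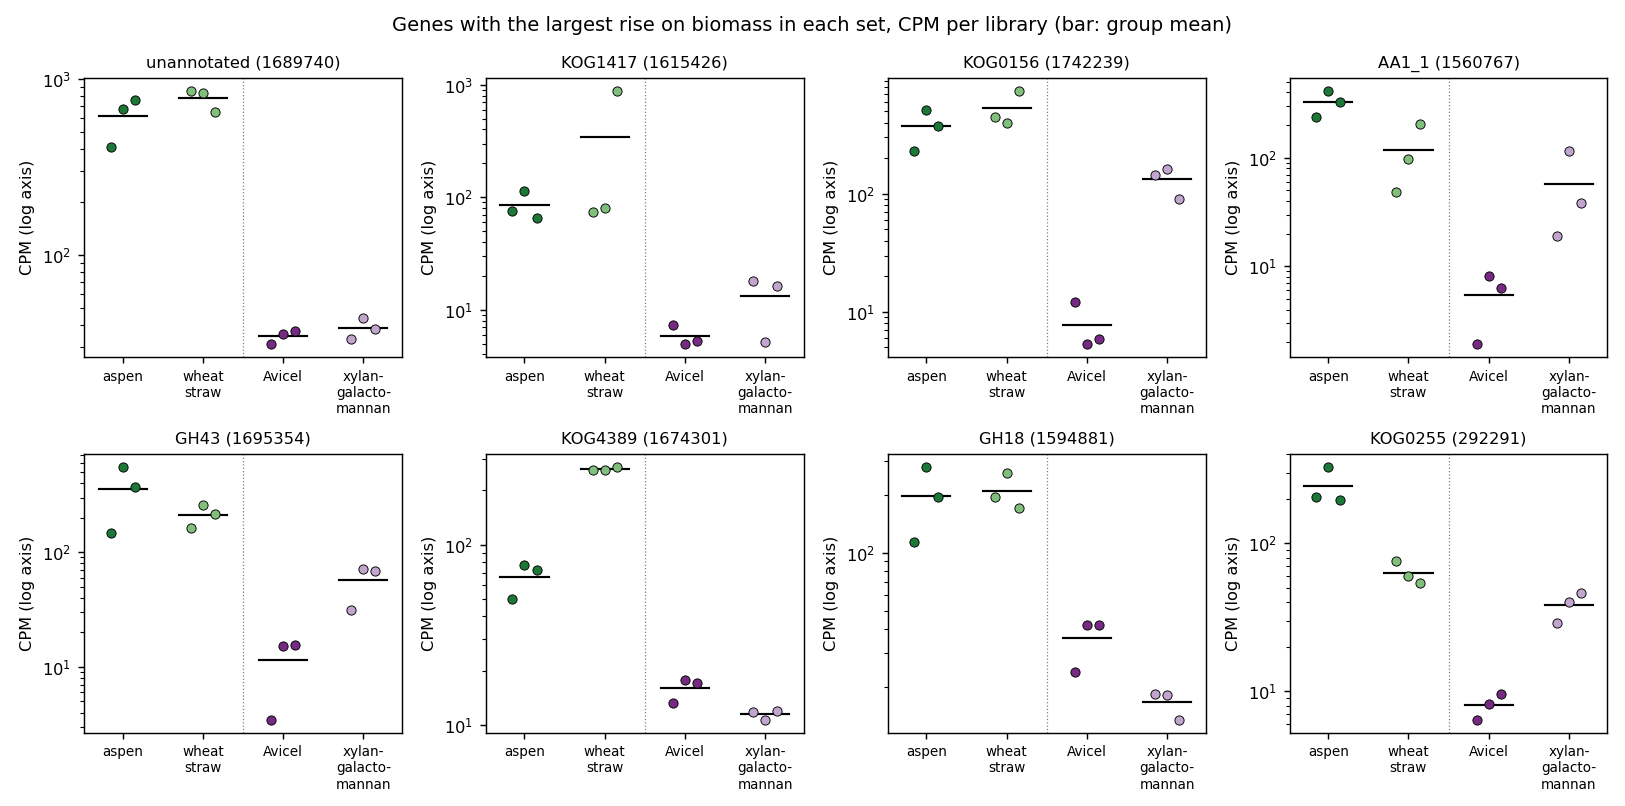
CPM (log axis) of 8 genes in each library (points) on aspen, wheat straw, Avicel and xylan-galactomannan, with the group mean as a bar. Each is the gene with the largest rise of its set, and in all but AA1_1 every biomass library lies above every polysaccharide library. The genes were picked for their rise in these same libraries. Of all genes called higher on average, 50.5% had every biomass library above every polysaccharide library.

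Of 5 listed genes for lipases and carboxylesterases, which cut ester bonds of lipids and other substrates, 4 were called higher (8.65% of all genes tested, median log2 fold change 2.68). KOG4389 (1674301), of the carboxylesterase type, had 49.8, 76.8 and 72 CPM on aspen and 259, 259 and 270.0 CPM on wheat straw, against 13.3, 17.8 and 17.1 CPM on Avicel and 11.8, 10.7 and 11.9 CPM on xylan-galactomannan. The spread within each group was small, wheat straw was the highest group (log2 fold change -1.99 ± 0.18, adjusted p = 0.000127 for aspen over wheat straw), and both biomasses were above both polysaccharides (log2 fold change 3.28 ± 0.13, adjusted p = 3.65e-07). The predicted lipase KOG4569 (1581796) had 251, 149.8 and 127 CPM on aspen and 117, 106 and 174 CPM on wheat straw, against 4.62, 13.8 and 12.4 CPM on Avicel and 16.3, 34.5 and 28.5 CPM on xylan-galactomannan (log2 fold change 3.21 ± 0.32, adjusted p = 2.90e-05), also called in all 4 pairs. The lipase genes 1604789 and 284504 rose on average (log2 fold change 2.68 ± 0.56 and 1.80 ± 0.32). Over Avicel, 284504 was called on neither biomass (1.01 on aspen, adjusted p = 0.0804, and 0.32 on wheat straw, adjusted p = 0.633). Over xylan-galactomannan, 1604789 was not called on aspen (1.41, adjusted p = 0.145). Gene 1604789 had 37.7 CPM in xylan-galactomannan 1 against 8.75 and 5 in the other libraries of that group, and without that library its log2 fold change was 3.33. The second KOG4389 gene, 1586203, was not called on average (0.31 ± 0.34), being higher than Avicel and, on aspen, lower than xylan-galactomannan (log2 fold change -2.36 ± 0.50, adjusted p = 0.00311).

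Among 5 listed protease genes 3 were called higher and 0 lower (8.65% and 8.94% of all genes tested, median log2 fold change 1.54). The genes KOG2090 (1646990) and KOG1339 (1682142) were not called (log2 fold change 0.46 ± 0.14 and -0.21 ± 0.34). The serine carboxypeptidase (1608570), which trims amino acids from the ends of proteins, was called in all 4 pairs, with 589 ± 165 CPM on aspen and 619 ± 223 CPM on wheat straw, against 158 ± 26.8 CPM on Avicel and 272 ± 131 CPM on xylan-galactomannan (log2 fold change 1.54 ± 0.28, adjusted p = 0.00107). The tripeptidyl peptidase (1643269) rose by 1.94 ± 0.43 on the log2 scale (adjusted p = 0.00356), and was called on both biomasses over xylan-galactomannan (aspen 2.72, wheat straw 3.46) but on neither over Avicel. The aspartyl protease KOG1339 (174056) was highest on aspen, with 319, 214 and 207 CPM on aspen and 63.4, 47.3 and 54.6 CPM on wheat straw, against 14.1, 34.5 and 37.1 CPM on Avicel and 57.3, 35.3 and 69.3 CPM on xylan-galactomannan. Wheat straw overlapped xylan-galactomannan and was called against neither polysaccharide, and the average rise was 1.57 ± 0.25 on the log2 scale (adjusted p = 0.000504).

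The listed sugar reductase and polyol dehydrogenase genes, of the pathways that turn pentoses and other sugars into polyols and back, were called higher in 2 of 5 (8.65% of all genes tested, median log2 fold change 0.99). KOG0024 (1656427), of the sorbitol dehydrogenase type, had 426, 238 and 228 CPM on aspen and 88.3, 40.6 and 41.5 CPM on wheat straw, against 28.4, 38.6 and 39.9 CPM on Avicel and 63.3, 77 and 79.1 CPM on xylan-galactomannan, a rise on aspen that wheat straw did not share (log2 fold change 1.35 ± 0.23, adjusted p = 0.000776 on average). KOG0725 (1611298), annotated as an arabinitol dehydrogenase, had 66.4 ± 18.2 CPM on aspen and 124.8 ± 14.7 CPM on wheat straw, against 18.8 ± 7.05 CPM on Avicel and 58.6 ± 27.2 CPM on xylan-galactomannan (log2 fold change 1.46 ± 0.25, adjusted p = 0.000872). Its log2 fold change over xylan-galactomannan was 1.09 on wheat straw, which was called, and 0.18 on aspen, which was not. The aldo/keto reductase KOG1577 (1578979) was highest on xylan-galactomannan, with 103, 196 and 153 CPM on aspen and 271, 282 and 218 CPM on wheat straw, against 103, 37.8 and 48.3 CPM on Avicel and 421, 1693 and 979 CPM on xylan-galactomannan. It was called lower than xylan-galactomannan on both biomasses (-2.78 on aspen and -2.003 on wheat straw), as was the related KOG1575 (1610012, -1.15 and -2.25). The second KOG0024 gene (1613859) was not called on average (log2 fold change 0.99 ± 0.46), but had 1.91 and was called without Avicel 1 and xylan-galactomannan 2.

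The listed transporters of the major facilitator superfamily, which carry sugars and other small molecules across the membrane, were mostly higher on biomass than on Avicel. Of the 9 genes 8 were higher than Avicel on both biomasses and 2 were higher than xylan-galactomannan on both (5.87% and 5.37% of all genes tested). In the average contrast 6 were called higher (8.65% of all genes tested, median log2 fold change 1.82). The difference between 8 and 2 of the 9 genes was not tested. KOG0255 (292291) had 206, 329.7 and 196 CPM on aspen and 76.2, 60.2 and 53.6 CPM on wheat straw, against 6.39, 8.24 and 9.58 CPM on Avicel and 29.1, 40 and 45.9 CPM on xylan-galactomannan (log2 fold change 2.82 ± 0.19, adjusted p = 3.93e-06), with aspen the highest group. Wheat straw over xylan-galactomannan stayed under the fold threshold (0.72). KOG0254 (1613810), called in all 4 pairs, had 39.9, 39 and 44.2 CPM on aspen and 67.4, 74.8 and 87.5 CPM on wheat straw, against 8.36, 8.1 and 7.97 CPM on Avicel and 10, 15.5 and 8.97 CPM on xylan-galactomannan (log2 fold change 2.53 ± 0.14, adjusted p = 1.09e-06), and the groups were tight. The KOG2533 genes 1585875 and 1621676 rose by 2.40 ± 0.20 and 2.13 ± 0.20 on the log2 scale, and only 1585875 was called in all 4 pairs. In 3 KOG0254 genes (1672735, 1593966 and 1673228) both biomasses were higher than Avicel and had log2 fold changes below 0 against xylan-galactomannan that were not called (-0.83 and -0.05, -0.89 and -0.52, -1.27 and -0.58 on aspen and wheat straw). Xylan-galactomannan 2 held the highest value of each of these genes. The average rise of 1672735 was 1.44, and 2.19 without Avicel 1 and xylan-galactomannan 2. Leaving out the same libraries, 1593966, 1673228 and KOG0255 (1589964), not called on average (0.71, 0.69 and 0.65), had 1.14, 1.55 and 1.08 and were called.

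The lists that the study had itself drawn up followed the same lines. Of its 91 genes selected on aspen, 69 were higher on biomass than on the polysaccharides and 0 lower, and 20 passed all 4 pairs. Of its 88 genes selected on wheat straw, 64 were higher and 1 lower (CE15), and 32 passed all 4. Over all genes tested, 8.65% were higher and 8.94% lower on average, and 1.89% and 1.49% passed all 4 pairs. The study had chosen both lists on the aspen, wheat straw, Avicel and maltose libraries, so these counts are not independent evidence of a direction. Against xylan-galactomannan, which had no part in that choice, 29 of the 91 and 39 of the 88 were higher on both biomasses and 1 of each was lower. The genes had been picked for high levels in the same biomass libraries, so these counts are not independent evidence either. Over all genes tested 5.37% were higher and 7.38% lower by this rule. The cluster of 8 genes that holds the cellulose-active genes was lower than Avicel on both biomasses in 8 and higher than xylan-galactomannan on both in 5. Over all genes tested these shares were 3.52% and 5.37%. The study had grouped its genes on transcript levels that included Avicel, so the count against Avicel is not independent evidence. A cluster of 11 genes that holds GH47 and a GH92 gene was higher on average in 8, among them the unannotated gene 1674723 (379 ± 16.9 CPM on aspen and 477 ± 52.7 CPM on wheat straw, against 91.6 ± 7.45 CPM on Avicel and 87.4 ± 26 CPM on xylan-galactomannan, log2 fold change 2.25 ± 0.16, adjusted p = 4.70e-06) and 1660524, a predicted GTPase-activating protein (2.01 ± 0.34 on the log2 scale). In the third cluster, of 11 genes that include CE8, GH79 and 1 GH43 gene, 0 were higher and 1 was lower on average (8.65% and 8.94% of all genes tested).

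Among genes without annotation in the study's tables for this strain, 1689740 showed the largest rise of those called in all 4 pairs. Most genes tested are not named in those tables, among them 1587279, 1559426 and 1588204 below, so the label does not mean that no function is known. It had 413, 679 and 761.6 CPM on aspen and 855, 829 and 646 CPM on wheat straw, against 31.1, 35.5 and 37 CPM on Avicel and 33.3, 44.1 and 38 CPM on xylan-galactomannan. The rise was 19.0-fold, the groups of each side were close, and the sides were far apart (log2 fold change 4.25 ± 0.19, adjusted p = 5.05e-07, and 4.16 to 4.36 with each library left out in turn). The second largest, 1587279, was transcribed at a low level, with 3.32 ± 0.974 CPM on aspen and 0.826 ± 0.228 CPM on wheat straw, against 0.063 ± 0.056 CPM on Avicel and 0.159 ± 0.0775 CPM on xylan-galactomannan and 0 to 8 counts per polysaccharide library, so that the size of its rise is uncertain (log2 fold change 4.004 ± 0.41, adjusted p = 2.92e-05). Another unannotated gene of the study's wheat straw list, 1612788, had 110.1 ± 21.8 CPM on aspen and 111 ± 27.3 CPM on wheat straw, against 4.31 ± 1.15 CPM on Avicel and 22.2 ± 1.39 CPM on xylan-galactomannan (log2 fold change 3.50 ± 0.17, adjusted p = 8.86e-07). Both of the largest falls among genes called in all 4 pairs exceeded in size the largest rise of any gene tested (5.18 on the log2 scale). Gene 1559426 had 3.06, 1.67 and 2.19 CPM on aspen and 2.64, 0.952 and 1.34 CPM on wheat straw, against 583, 265 and 294 CPM on Avicel and 3181, 189 and 1270.3 CPM on xylan-galactomannan, a fall of 8.62 on the log2 scale (SE 0.73, adjusted p = 1.41e-05). Gene 1588204 had 6.17, 1.74 and 1.38 CPM on aspen and 0.674, 0.782 and 0.882 CPM on wheat straw, against 85, 5.56 and 6.36 CPM on Avicel and 1967, 76.6 and 878 CPM on xylan-galactomannan. It fell by 6.83 on the log2 scale (SE 1.04, adjusted p = 0.000376), but aspen 1 lay above Avicel 2, and without Avicel 1 the log2 fold change was -5.60.

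The biomasses were not alike in every gene. Of the 67 annotated genes 23 were called between them, 7 higher and 16 lower on aspen than on wheat straw, where 5.97% of all genes tested were higher and 7.25% lower. Of the 5 cellulose-active genes 4 were lower on aspen, CBM1-GH6 (1567787, log2 fold change -1.22 ± 0.37), GH131-CBM1 (571793, -1.02 ± 0.30), AA8-AA3_1 (1672751, -2.09 ± 0.52) and GH7 (1675671, -2.42 ± 0.72). KOG0024 (1656427), KOG1339 (174056), KOG1575 (1610012), KOG0255 (292291) and KOG2533 (1621676) were higher on aspen, as were GH16 (1591231), of a beta-glucanase family, and CE16 (1592100), of an acetylesterase family. Lower on aspen were also GH3 (1537322), CE8 (1577721), GH2 (1664834), GH28 (1738933), GH76 (1575750), GH18 (1601452), KOG4389 (1674301), KOG0157 (1589162), the ligase type gene 1582251, the hydroxyquinol dioxygenase (1588935), a second KOG1339 gene (1682142) and a second KOG0255 gene (1589964). The unannotated 1587279 was higher on aspen. Over all genes called lower on biomass, 22.8% also differed between aspen and wheat straw.

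**Figure D5:**
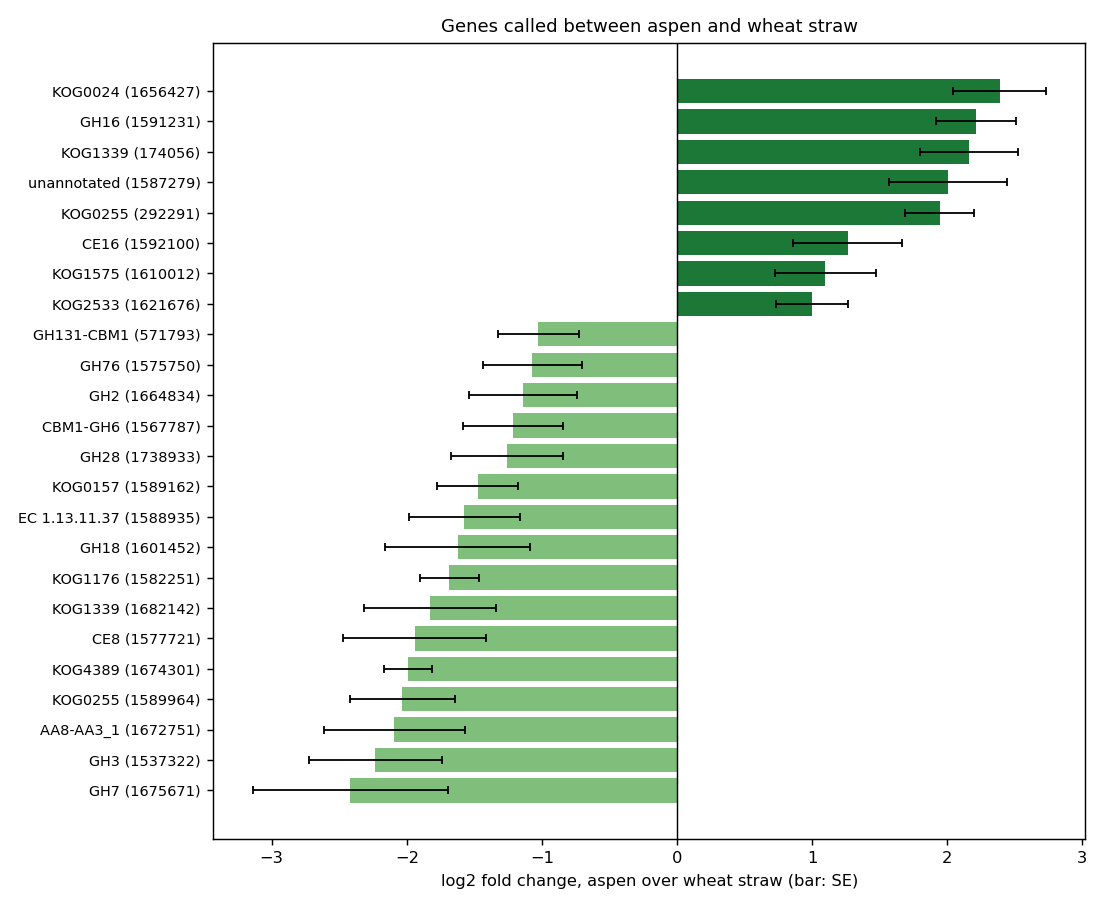
Log2 fold change of aspen over wheat straw (horizontal axis, bars with standard error) for the 24 genes called between them (rows) among the 67 annotated and 7 other genes with values. The values run from 2.39 for KOG0024 to -2.42 for GH7, with 8 genes higher and 16 lower on aspen.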

How the data were processed

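RNA of 12 libraries was compared, 3 on each of aspen, wheat straw, Avicel and xylan-galactomannan, grouped by the carbon source in the labels, and 3 maltose libraries were left out except in 1 alternative. The deposited raw table holds read counts for each gene model, made by the authors with TopHat2 and HTSeq (versions and strand setting: not given in the sources used here). Of counts from 1 to 20, between 66.5% and 76.5% per library were even, and no source used here says whether both mates of a read pair were counted, so that counts divided by 2 were 1 of the alternatives and a count of the floor may stand for fewer fragments. A second deposited table holds a normalised signal, counts over a size factor for each library (DESeq 1.5 per the labels), and was not tested. The deposited length column (other) gives gene model length in bases and was used for levels per kilobase and for an alternative that removes a length trend. The number of library columns without a sample was 0.

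Counts were fitted in edgeR 4.0.16 (R 4.3.3) with TMM scaling, filterByExpr, a mean per group and the robust quasi-likelihood test, which kept 11704 of 14165 gene models (common biological coefficient of variation 0.27). Benjamini-Hochberg adjustment was made within each contrast, and calls needed an adjusted p under 0.05 and an absolute log2 fold change above 1. Library totals of 24209984 to 50428442 counts set the precision. Values are given as mean ± SD over 3 libraries and fold changes with their SE. The floor for low counts was 3, for counting error alone.

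Named genes were, in each list, the called members with the 4 largest absolute changes and all members of lists of up to 3, the genes of AA1_1, GH88 and GH2, and the 2 largest rises and falls without annotation in the study's tables among genes called in all 4 pairs. Other members are named with their values. The gene lists, their members and the rule for named genes were chosen with earlier results of these data known. Alternatives were median-of-ratios factors, library size alone, no filter, DESeq2 1.42.0, limma-voom (limma 3.58.1), counts divided by 2, all 15 libraries, a replicate block, a length trend removed, and leaving out libraries.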

Additional observations from a re-analysis of the deposited data

Results flagged for a closer look

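In 24 of the 74 genes with values the effect of biomass over the same polysaccharides differed between aspen and wheat straw, by the test of aspen against wheat straw itself in the same fit. Over all genes tested 13.2% were called between aspen and wheat straw. Higher on aspen were KOG0024 (1656427, sorbitol dehydrogenase type, log2 fold change 2.39 ± 0.34, adjusted p = 0.000678), the aspartyl protease KOG1339 (174056, 2.16 ± 0.36, 0.00166), the unannotated 1587279 (2.01 ± 0.43, 0.00579) and the transporters KOG0255 (292291, 1.95 ± 0.25, 0.000449) and KOG2533 (1621676, 1.001 ± 0.27, 0.016). Lower on aspen were the cellobiohydrolase gene GH7 (1675671, -2.42 ± 0.72, 0.0268), GH3 (1537322, -2.23 ± 0.49, 0.00657), the carboxylesterase type KOG4389 (1674301, -1.99 ± 0.18, 0.000127), the pectin methylesterase gene CE8 (1577721, -1.94 ± 0.53, 0.0179) and the hydroxyquinol dioxygenase (1588935, -1.57 ± 0.41, 0.0148). Also lower on aspen were the P450 gene KOG0157 (1589162, -1.48 ± 0.30, 0.00421), the polygalacturonase gene GH28 (1738933, -1.26 ± 0.41, 0.0391) and the mannosidase gene GH2 (1664834, -1.14 ± 0.40, 0.0499). The cellulose-active genes AA8-AA3_1 (1672751, -2.09 ± 0.52, 0.0117), CBM1-GH6 (1567787, -1.22 ± 0.37, 0.029) and GH131-CBM1 (571793, -1.02 ± 0.30, 0.0245) were lower as well, as were the ligase type gene 1582251 (-1.68 ± 0.22, 0.000431), GH18 (1601452, -1.62 ± 0.53, 0.0404), GH76 (1575750, -1.07 ± 0.37, 0.0463), KOG0255 (1589964, -2.03 ± 0.39, 0.0032) and KOG1339 (1682142, -1.83 ± 0.49, 0.0168). GH16 (1591231, 2.21 ± 0.30, 0.000497), CE16 (1592100, 1.26 ± 0.40, 0.0357) and KOG1575 (1610012, 1.099 ± 0.37, 0.0454) were higher. The 3 libraries on aspen did not overlap the 3 on wheat straw in each of these genes except GH7 and KOG1575. These genes were picked by the call on the same libraries, so this is not further support for a difference. The share without overlap over all genes tested was not counted.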

How the results depend on the processing

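Of 47 called genes with values, 44 kept direction and call wherever an alternative gave an adjusted p, and GH88, CE15 and GH28 (1738933) lost the call in at least 1. DESeq2 gave no adjusted p for KOG1417 (1615426). Library size alone gave 2195 genes higher and 448 lower, 536 and 69 in all 4 pairs, 1299 and 195 against Avicel on both biomasses and 1336 and 451 against xylan-galactomannan on both. An adjusted p under 0.05 without the fold threshold gave, in the same order, 2759 and 3120, 490 and 616, 1121 and 1132, and 1313 and 1792, with 41 genes above Avicel and below xylan-galactomannan (36 by DESeq2, against 22). Without Avicel 1 and xylan-galactomannan 2 together, 1054 genes were higher than xylan-galactomannan on both biomasses. With each library left out in turn, 928 to 1303 genes were higher and 962 to 1137 lower on average. In all 4 pairs 173 to 360 were higher (360 without xylan-galactomannan 2) and 113 to 232 lower (113 without wheat straw 3). Against Avicel 543 to 770 and 320 to 497 were higher and lower on both biomasses, and against xylan-galactomannan 504 to 966 (966 without xylan-galactomannan 2) and 675 to 1038. Below Avicel and above xylan-galactomannan stood 43 to 52 genes, and the reverse held for 15 to 34 (34 without xylan-galactomannan 1). The patterns against 1 polysaccharide or between both were added after the data were seen. Replicate numbers did not pair the libraries (correlations of deviations from -0.178 to 0.401, 2 of 18 above 0.1), and with the replicate block 1068 genes were higher and 968 lower, and 240 and 154 in all 4 pairs. Sign changes fell on 8 genes that were not called. With library size alone the log2 fold change was 0.0751 for 571793, 0.0429 for 1578979, 0.279 for 1583489, 0.168 for 1601452 and 0.235 for 1682142. Without Avicel 1 and xylan-galactomannan 2 it was 0.18 for 1578979, 0.374 for 1583489 and 0.0208 for 1672345, and limma-voom gave 0.0362 for 1583489. With each library left out in turn it ran from -0.127 to 0.351 for 1561085, -0.41 to 0.459 for 1583489, -4.7e-05 to 0.316 for 1592100, -0.3995 to 0.149 for 1601452 and -0.406 to 0.181 for 1682142. The causes were not tested. Counts near the floor, as for 1587279, and the wide spread within xylan-galactomannan and Avicel limit the precision.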
